A study of Mus musculus with 26 samples.

Results

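The CTCF regions outside open chromatin are the sites at which CTCF M-ChIP gave a peak in mouse embryonic stem cells (mESC) although no accessibility peak was called there. They were chosen as the distinct regions of the merged CTCF M-ChIP peak list that shared not even 1 bp with the merged M-ATAC list or with either ATAC list. Of 38881 CTCF regions, 29560 met this rule, which is 76% of the list, and the remaining 9321 overlapped open chromatin. The former are called outside-open regions here and the latter open regions. The choice used the start and end of peaks, and so their width, but neither their height, their sequence nor their methylation.

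All samples used were KH2 mESC, an undifferentiated mouse line grown on irradiated feeder fibroblasts that were removed by pre-plating before the assays, and none carried a treatment. In M-ATAC (4 samples) and CTCF-M-ChIP (2 samples) a transposase loaded with methylated adaptors cut accessible chromatin, or chromatin pulled down with a CTCF antibody, and the fragments then went through bisulfite conversion, so that 1 library gives both a peak and the methylation of its cytosines. Aliquots taken before conversion (NC, 2 samples for each assay) and libraries made with the standard Nextera transposase (ATAC and CTCF-ChIP, 2 samples each) were the controls. The labels call the samples of a group replicates and do not say whether they came from separate cultures, so the p-values below measure the spread between these samples, which may be technical. In the merged RNA-seq of the mESC, the 7 pluripotency markers examined, Pou5f1 and Nanog among them, ranged from 228.85 to 5393.76 TPM, the length-scaled share of transcripts. The 7 fibroblast markers summed to 124.71 TPM, from 0.08 for Lum to 48.69 for Col1a1, so fibroblast marker RNA was low but not at 0, and its part in the results below was not tested. Ctcf itself was at 82.94 TPM.

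CTCF is a zinc finger protein that binds a long DNA motif, halts the cohesin ring as it extrudes chromatin loops and so marks the borders of many chromatin domains. Its motif can hold a CpG at 2 places of the core, known as C2 and C12, and cytosine methylation at some of these CpGs weakens binding. In rodents, short interspersed repeats have spread many copies of a CTCF motif through the genome. M-ChIP reads methylation from the fragments of a CTCF pull-down, which hold enriched DNA and background, and the share of background reads in a peak was not measured.

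The sequences below are the best motif matches that the results turn on, each 19 bp long, printed from 5′ to 3′ along the motif strand with CpG dinucleotides in capitals. C2 is the CpG at positions 5 and 6, and C12 the CpG at positions 15 and 16, counted from 1 at the 5′ end. The first 4 are shown because they recur in many regions, the next 5 because they belong to the outside-open regions with the highest fold enrichment or motif score that hold a CpG, the next 3 to those with the highest methylation, and the last 3 to those with the lowest.
Recurrent motif 1: aggccagaagagggcatca
Recurrent motif 2: aggccagaagagggcacca
Recurrent motif 3: aggccagaagagggCGtca
Recurrent motif 4: atgccagaagagggcatca
Gm13246 region: tCGccaccagggggcagca
Gm39157 region: aggtcagaagagggCGtca
Hif3a region: tgaccaccagagggcaCGc
Insig1 region: tggccaccagggggCGctg
Crmp1 region: CGgccaccagggggCGcca
Il17ra region: acaccagaagagggCGttg
n-R5s175 region: aggccagaagagggCGtCG
Il1r1 region: aggccagaagggggCGgca
Gm45546 region: CGgccacaCGggggCGCGg
Ncs1 region: aggacactagagggCGcta
Mpnd region: caacCGccagagggCGaCG
The recurrent motifs and those of the methylated regions share the letters ccagaag, while those of Insig1 and Crmp1, with the highest scores, read ccaccag in the same place. Every match agreed letter for letter with the reference genome (GRCm38, the mm10 build that the peaks use), in all 43074 matches deposited.

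Outside-open regions were weaker peaks than open regions, but many were strong. Their median fold enrichment over the local background was 9.29 (quartiles 6.69 to 12.5), against 11.1 (8.09 to 14.4) in open regions. The lower median was seen on every one of 20 chromosomes, with differences from -2.42 to -0.71. They were also narrower, with a median of 240 bp against 278 bp. Under a rule of 1 bp a wider region can more easily touch an open region, so width is not independent of the choice. Within quartiles of region width the difference in median fold was -0.66, in place of -1.86. The share of CTCF regions that lay outside open chromatin fell from 84.8% in the lowest decile of fold enrichment to 63.4% in the highest. Most of the strongest CTCF regions of these cells were thus without an accessibility peak, 2462 of 3886 in the top decile.

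**Figure D1:**
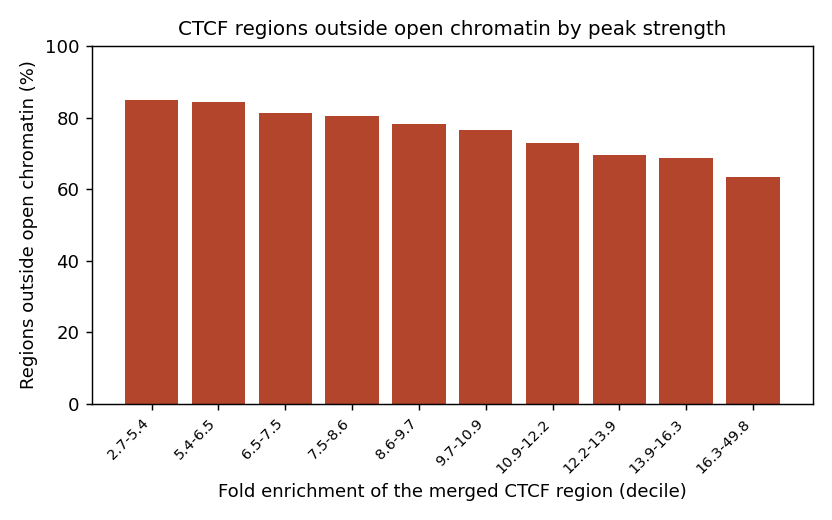
Percentage of CTCF regions that lay outside open chromatin (y axis) in each decile of the merged list by fold enrichment (x axis, range of each decile). The bars fall from 84.8% in the weakest to 63.4% in the strongest decile.

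The unconverted M-ATAC-NC lists, made from aliquots of M-ATAC material and so not independent of the rule, seldom held outside-open regions. They overlapped 0.825% and 1.06% of outside-open regions, against 34.3% and 39.8% of open regions. In both of these lists lay 53 outside-open regions, 0.179% of them, against 28.1% of open regions and 6.86% of all CTCF regions. In either list lay 1.70%, against 46.0% of open regions and 12.3% of all CTCF regions. Single lists also missed many open regions: the ATAC lists of the rule held 30.4% and 41.1% of them, and the merged M-ATAC list 91.6%. A region missing from a list had no called peak there, and accessibility below the threshold of the peak caller is not measured by such a list.

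Outside-open regions were mostly found again in the CTCF-ChIP libraries, which played no part in defining them. The list of CTCF-ChIP replicate 1 held 88.2% of them and that of replicate 2 held 95.9%, against 95.8% and 99.1% of open regions (over all CTCF regions, 90% and 96.7%). The CTCF-M-ChIP-NC libraries are unconverted aliquots of CTCF-M-ChIP material and therefore not independent of the merged list. Their lists held fewer, 49.7% in replicate 1 and 69.9% in replicate 2, against 70.2% and 82.2% of open regions (over all CTCF regions, 54.6% and 72.8%). In each of the 4 libraries the outside-open regions were thus found less often. Recovery followed the length of the lists, which held 22261 and 30470 regions for CTCF-M-ChIP-NC and 40046 and 49633 for CTCF-ChIP. The mean difference was -10.9 percentage points ± 7.37 (SD, n = 4 libraries), with all 4 below 0, and an exact sign-flip permutation test (two-sided) gave p = 0.125, adjusted p = 0.188 over 3 tests. That is the smallest p that 4 libraries allow, so this test could not pass the usual threshold, and the 4 libraries include the aliquots. In CTCF-ChIP alone the difference was -5.43 points ± 3.14 (SD, n = 2). Over the 4 libraries it shrank to -5.74 points within quartiles of fold, -5.70 within quartiles of region width, and -5.25 among regions in both CTCF-M-ChIP lists.

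Where a region was recovered, its peak was also lower. Median fold enrichment of recovered outside-open regions was 7.14 and 7.89 in CTCF-M-ChIP-NC and 10.3 and 13.2 in CTCF-ChIP, against 7.91, 8.65, 12.5 and 15.8 for open regions. The mean log2 difference was -0.20 ± 0.07 (SD, n = 4 libraries), again with 4 of 4 below 0 and p = 0.125 (exact sign-flip permutation test, two-sided, adjusted p = 0.188). Within quartiles of fold it was -0.08, and within quartiles of region width -0.11. The gap in recovery was -16.4 points ± 5.77 (SD, n = 2) in CTCF-M-ChIP-NC and -5.43 ± 3.14 (SD, n = 2) in CTCF-ChIP, a difference of 10.9 points with p = 0.333, the smallest that an exact permutation test of 2 against 2 samples gives. The CTCF-M-ChIP libraries themselves, from which the merged list was called, held 79.8% and 69.3% of outside-open regions against 90.7% and 76.8% of open regions (over all CTCF regions, 82.4% and 71.1%).

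**Figure D2:**
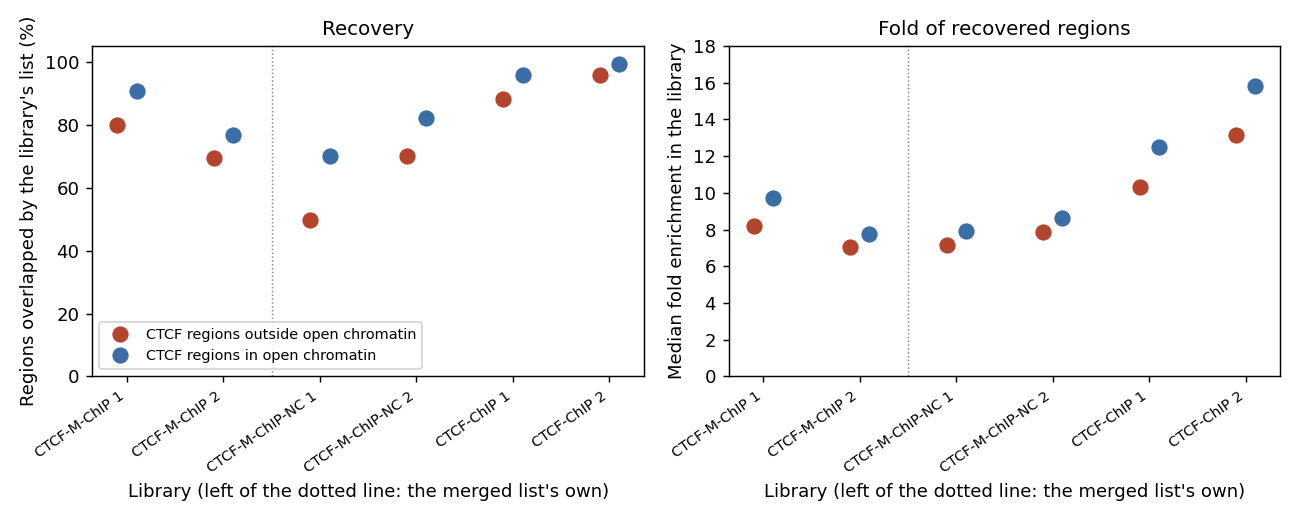
Left, percentage of outside-open (red) and open (blue) CTCF regions overlapped by the peak list of each CTCF library; right, median fold enrichment of the overlapped regions in that library. The red point is below the blue one in every library of both panels.

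In all 4 of the CTCF-M-ChIP-NC and CTCF-ChIP lists lay 13310 outside-open regions, 45.03% of them, against 65.6% of open regions and 50% of all CTCF regions. These had a median fold of 12.2, and 96.7% held a motif match. At the other end, 1022 outside-open regions (3.46%) lay in none of the 4 lists. Their median fold was 5.04 and only 49.4% held a motif match. Among open regions 72 (0.772%) lay in none.

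The tallest outside-open regions were tall in nearly every library. The region 26625 bp from the start of Gm39157, a predicted gene, at chr8:33958946-33959289, had a fold of 31.1, and in the single CTCF libraries 27.5 and 16.01 in CTCF-M-ChIP, 19.6 and 18.5 in CTCF-M-ChIP-NC, and 28.3 and 32.5 in CTCF-ChIP. A region at chr7:17066442-17066852, intergenic and 4015 bp from the start of Hif3a, which encodes a hypoxia-inducible factor subunit, had a fold of 30.4 and reached 24.98, 19.97, 14.7, 21.7, 26.3 and 31.98 in the same order of libraries. Another at chr4:109036386-109036686, in an intron of Nrd1, which encodes a metalloprotease, had a fold of 30.1 and carried recurrent motif 2, and its values were 27.0, 16.8, 12.1, 17.2, 26.8 and 28.4. All 3 were above the outside-open median in each library. The other 6 of the 10 highest, beside Gm6049, Sft2d3, Gm24187, Gm44456, Gm13655 and Gm47115, had folds from 28.2 to 30.4 and were in all 6 CTCF lists. The region with the highest fold of all was an exception. It lies at chr4:145851460-145851695, 6742 bp from the start of the predicted gene Gm13246 and 276 bp from the nearest open region, with a fold of 32.3 and values of 23.4 and 21.3 in the CTCF-M-ChIP libraries. None of the 4 lists from unconverted or Nextera libraries held it.

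A motif match was as frequent in outside-open as in open regions. Of outside-open regions 91.0% held at least 1 match to the CTCF motif MA0139.1 (95% Wilson interval 90.7% to 91.4%), and of open regions 90.9% (90.3% to 91.4%), with 91% over all CTCF regions. Wilson intervals here cover counting error only. More than 1 match was less frequent, at 15.1% against 22.7%. The best match of a region lay close to the summit in both, at a median of 20 bp from it. The 2649 outside-open regions without a match were weak peaks, with a median fold of 5.96 and a recovery of 60.8% and 78.4% in the CTCF-ChIP lists.

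Motif scores were close, and their order depended on the strength of the peak. The median score of the best match was 17.1 in outside-open and 17.4 in open regions, a difference of -0.295 that is smaller than its spread over 20 chromosomes (SD 0.4005). Outside-open regions had the higher score in the lowest quartile of fold enrichment, 16.03 against 14.9, and the lower score in the highest quartile, 17.97 against 18.4. Averaged within quartiles of fold the difference turned to 0.195, and within quartiles of region width to 0.244. The share with a match was higher in outside-open regions in every quartile of fold, by 2.66 points on average.

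The 5 outside-open regions with the highest scores had folds from 7.22 to 13.5. The best scored was a match of 27.2 at chr5:28094019-28094260, intergenic and 19353 bp from the start of Insig1, a regulator of sterol synthesis, with a fold of 9.74. In an exon of Crmp1, which encodes a collapsin response mediator of neurons, at chr5:37291038-37291263, a match of 27.1 had a fold of 7.22, and one of the CTCF-M-ChIP-NC lists did not hold the region. The other 3, beside Gm43123, Cfap57 and Slc35f5, had folds of 12.1, 8.25 and 13.5.

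The base composition of the motifs differed more than their scores. At position 8, A stood in 44.4% of the best matches of outside-open regions and in 18.2% of those of open regions. Position 1 was A in 38.3% against 15.4%, and position 11 was A in 59.2% against 38.005%. These are the bases of the recurrent motifs printed above. Motif 1, aggccagaagagggcatca, was the best match of 584 CTCF regions, of which 566 were outside open chromatin. Motif 2 stood in 385 regions, 368 of them outside, and motif 3, which holds the C12 CpG, in 203, 200 of them outside. Of the best matches of outside-open regions 19.8% had a sequence found 10 or more times in the list, against 3.40% in open regions.

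The recurrent motifs lay in sequence that the reference treats as repeats. The reference marks repetitive and low-complexity DNA in lower case (soft-masked), and the best match was soft-masked in 39.5% of outside-open regions with a motif (95% Wilson interval 38.9% to 40.1%), in 10.3% of open regions (9.67% to 10.96%) and in 32.5% overall. Put the other way, 92.4% of the 11493 CTCF regions with a soft-masked best match lay outside open chromatin, and 68.2% of the 23888 without. The 11 letters ccagaagaggg at positions 4 to 14 were in 64.5% of the soft-masked best matches of outside-open regions and in 0.153% of those that were not soft-masked (over all CTCF regions with a motif, 20.6%; read on the motif strand and at these positions only). Where the match was not soft-masked, the difference at position 8 was smaller, with A in 18.6% of outside-open against 13.2% of open matches. CpGs still differed in these matches. C2 stood in 4.87% of outside-open against 14.6% of open matches, C12 in 34.8% against 44.6% and any CpG in 43.95% against 58.3%. The reference used here gives no repeat family, and none was assigned.

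Regions with a soft-masked best match had nearly the fold enrichment of the others. Among outside-open regions their median fold was 9.37, against 9.73 where the match was not soft-masked, and the CTCF-ChIP lists held 87.9% and 96.5% of them against 92.8% and 98.4%. The CTCF-M-ChIP-NC lists held 47.5% and 68.2% against 55.7% and 76.6%. The motif score was lower, 16.5 against 17.4. Without the soft-masked matches the scores of outside-open and open regions differed by 0.0164, at a median of 17.4 in both.

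CpGs were fewer in and around the motifs of outside-open regions. A median of 0.926 CpG per 100 bp was counted over the region, against 2.04 in open regions, with a GC content of 46.1% against 52.3%. A best match with any CpG was found in 39.7% of outside-open regions with a motif and in 55.7% of open ones. C12 was present in 32.3% against 42.5% (34.7% overall), and C2 in 3.05% against 13.2%. Both together stood in 1.43% against 8.30%. Where the match was not soft-masked the same order held, with C2 in 4.87% against 14.6%.

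Motif CpGs were more methylated in outside-open regions. At cytosines with at least 5 reads, mean methylation was 19.1% (20357 cytosines, a median of 9 reads each) against 3.60% in open regions (15028 cytosines, 11 reads). Pooled, 35125 of 219928 cytosine calls were methylated, which is 15.97%, against 3.11%. A call is 1 read at 1 cytosine, so a read that spans several cytosines of a motif is counted several times, here and in the regions below. In counts and means over cytosines, a cytosine shared by overlapping matches enters once for each match. Values pooled by region count it once. The cytosines come from the merged CTCF-M-ChIP replicates and have no replicate check. Taken chromosome by chromosome, the difference of 15.5 points was above 0 on each of 20 (Y, with 14 regions, left out), from 8.15 points on the X chromosome to 19.8, with an SD over chromosomes of 2.64.

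Most motif cytosines of outside-open regions were nonetheless low. Below 20% methylation lay 65.6% of them, between 20% and 80% another 30.8%, and over 80% only 3.58%, against 93.6%, 6.24% and 0.153% in open regions (over all CTCF regions, 77.5% were low and 2.13% high). No methylated read was seen at 47.5% of the cytosines of outside-open regions and at 80.8% of those of open regions. With 5 reads, 1 read is worth 20 percentage points, so single cytosines at the minimum are coarse.

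The difference was present at every level of peak strength. Outside-open regions had 27.6% against 5.35% in the lowest quartile of fold enrichment and 13.6% against 2.87% in the highest. Methylation was lower in stronger peaks in both groups, and the groups stayed apart in each of the 4 quartiles. The median reads per cytosine were alike within quartiles, 6 and 7 in the lowest and 14 and 14 in the highest.

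**Figure D3:**
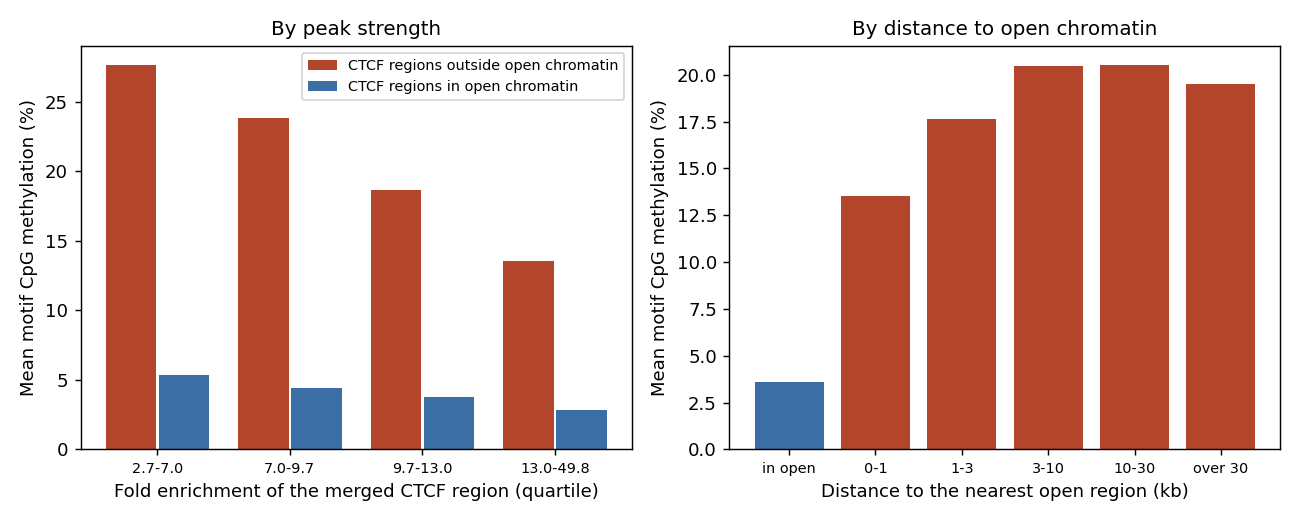
Mean methylation of motif cytosines with at least 5 reads (y axes, %): left, in outside-open (red) and open (blue) CTCF regions by quartile of fold enrichment; right, by distance of the region to the nearest open region in kb. The red bars are the taller ones in each quartile, and the bars on the right go from 3.60% in open chromatin to 20.5% at 3 to 30 kb from it.

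Methylation was lower next to open chromatin. Outside-open regions lay a median of 8228 bp from the nearest open region (quartiles 3049.75 and 20247 bp). Within 1 kb of one, 2469 regions had a mean motif methylation of 13.5%. It was 17.6% from 1 to 3 kb, 20.5% from 3 to 10 kb, 20.5% from 10 to 30 kb and 19.5% beyond 30 kb. Median fold enrichment went from 8.56 within 1 kb to 9.51 between 10 and 30 kb, and was 8.92 beyond 30 kb. From within 1 kb to beyond 30 kb the promoter share fell from 46.8% to 13.6%. The median CpG density fell from 1.23 to 0.794 per 100 bp. The part of these in the methylation values was not tested. Just inside the limit of the rule, 160 outside-open regions within 100 bp of an open region had a median fold of 7.70 and a motif methylation of 9.41%. Just beyond it, 645 open regions covered by at most 100 bp had 7.37 and 7.12%.

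The level differed with the place of the CpG in the motif. At C2, position 5, methylation was 3.87% in outside-open regions (691 cytosines) and 1.46% in open regions (1105), and at position 7 it was 3.89% (188 cytosines) and 2.40%. C12, position 15, had 17.8% (6757 cytosines) against 3.40% (3502). Position 18 had the highest mean among positions with 100 or more cytosines, 33.4% (483) against 6.06% (373). On the motif strand the CpGs at C2 and position 7 were thus low in both groups, and the gap between groups was wider at the other positions with 100 or more cytosines. On the opposite strand of the same CpGs, C2 had 7.61% against 1.71% and C12 had 23.4% against 4.72%. Of the soft-masked best matches of outside-open regions, 0.245% held C2 and 28.4% held C12. Soft-masked matches were the more methylated ones, as given below. The parts of position and soft-masking in these levels were not separated.

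**Figure D4:**
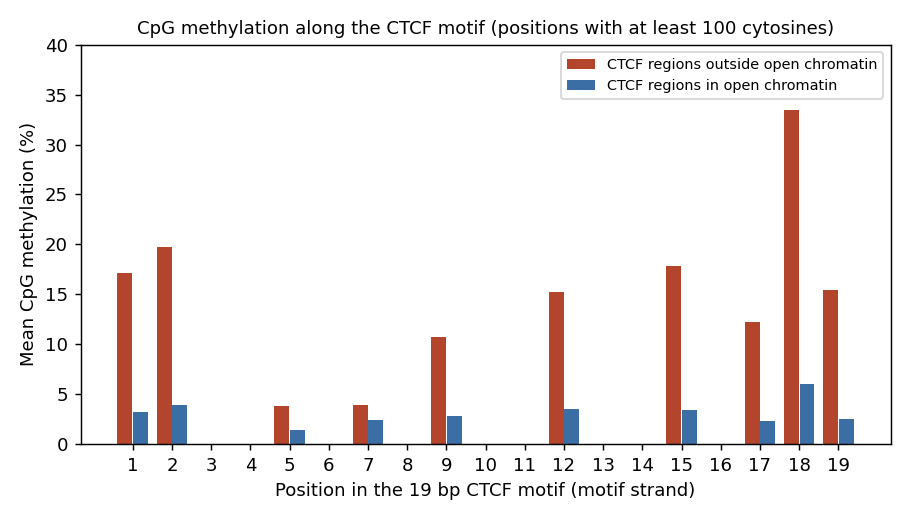
Mean CpG methylation (y axis, %) at each position of the CTCF motif on the motif strand (x axis) that had at least 100 cytosines, in outside-open (red) and open (blue) CTCF regions. Positions 5 and 7 stay below 4% in both groups, while position 18 stands at 33.4% and 6.06%.

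Methylation was highest in soft-masked matches. Where the best match was soft-masked, its cytosines in outside-open regions were methylated at 35.3% (5186 cytosines), against 9.23% in open regions (541). Where it was not, they had 12.2% (13307) against 2.79% (11491). Over all motif cytosines of the regions whose best match was not soft-masked, outside-open and open regions differed by 9.63 points, in place of 15.5. Their own part in the overall gap and that of being outside open chromatin were not separated further.

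Pooled over its motif cytosines, a region could be classed where it had at least 10 calls, which held for 8474 outside-open regions. Of these 5396 were low, 2885 intermediate and 193 over 80% methylated, or 2.28% (1.5% over all CTCF regions), while 3 of 4578 open regions were. The highly methylated regions had a median fold of 9.12 and 64.8% of their best matches were soft-masked. CTCF-ChIP, which involves no bisulfite, recovered 93.8% and 97.9% of them, and CTCF-M-ChIP-NC 37.8% and 68.9%. For the low class, with a median fold of 11.8, these values were 98.5% and 99.7%, and 75.9% and 91.0%. For all outside-open regions in the quartile of fold from 6.99 to 9.69 they were 91.4% and 98.3%, and 39.3% and 66.4%. The parts of peak strength and methylation in recovery were not tested.

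The 3 outside-open regions with the highest lower bound of methylation all had soft-masked best matches with the C12 CpG. The region at chr6:120457570-120457891, intergenic and 5356 bp from the start of Il17ra, which encodes a subunit of the interleukin-17 receptor, had 19 methylated of 19 calls over 4 cytosines. At chr5:119266639-119266799, 30446 bp from n-R5s175, a 5S ribosomal RNA copy, 32 of 34 calls were methylated, 94.1%, over 4 cytosines of 2 neighbouring CpGs. In an intron of Il1r1, the interleukin-1 receptor, at chr1:40294050-40294239, all 15 of 15 calls were. The Il17ra region was a weak peak with a fold of 5.51 and lacked a peak in CTCF-M-ChIP replicate 2 and CTCF-M-ChIP-NC replicate 1, but had a fold of 5.39 and 21.2 in CTCF-ChIP. Those of n-R5s175 and Il1r1 had folds of 10.97 and 10.5 and were in both CTCF-ChIP lists, at 9.997 and 16.7, and at 9.29 and 14.9. The n-R5s175 region was missing from the same pair of other lists as the Il17ra region.

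At the other end, no methylated call was seen in the 3 regions with the lowest upper bound. The region at chr8:70610813-70611102, in the promoter and an exon of Gm45546, had 0 methylated of 194 calls over 8 cytosines. An intronic region of Ncs1, which encodes a neuronal calcium sensor, at chr2:31291488-31291775, had 0 of 192, and the promoter region of Mpnd at chr17:56010746-56011034 had 0 of 146 with a fold of 21.8. None of these 3 best matches was soft-masked. Low methylation was found in a soft-masked match too: the Gm39157 region, whose soft-masked best match held a C12 CpG, had 0 of 67 methylated calls. Within the Hif3a region 2 matches differed: the best match had 0 of 22 and 1 of 28 methylated calls at its 2 cytosines, and the weaker one 3 of 3 and 4 of 4.

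Outside-open regions lay farther from genes' starts. Within 3 kb of a transcription start (promoter) lay 24.9% of them (95% Wilson interval 24.4% to 25.4%), against 44.3% of open regions (43.2% to 45.3%) and 29.6% of all CTCF regions. Within 1 kb the shares were 9.75% and 31.5%. Introns outside promoters held 34.8% against 21.5%, exons 4.14% against 5.47%, and intergenic DNA 36.1% against 28.8%. The promoter share was lower on all 20 chromosomes, with differences from -32.2 to -13.8 points. Their median distance to the nearest start was 8527.5 bp, against 4181 bp.

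**Figure D5:**
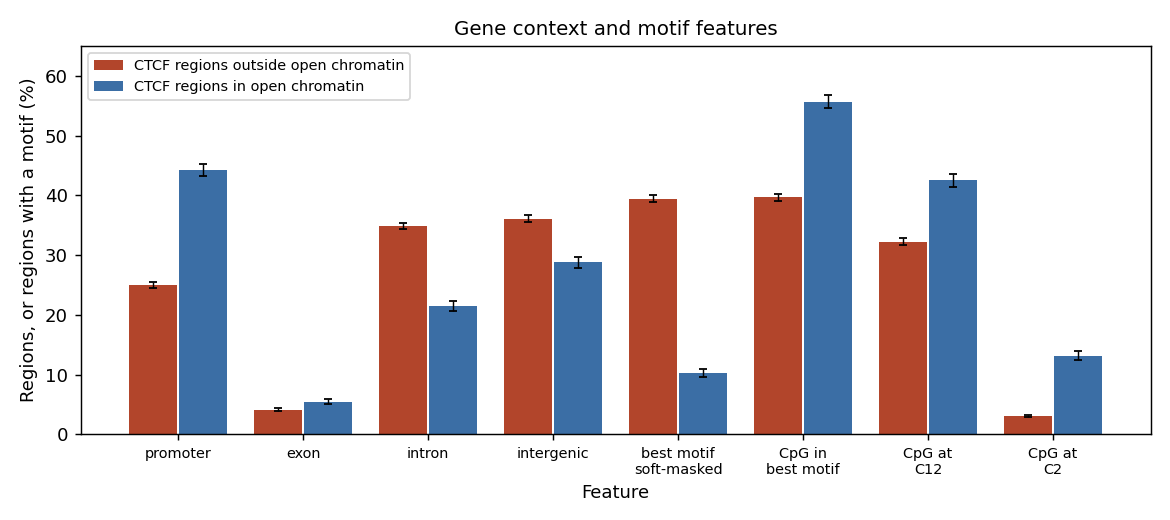
Percentage of outside-open (red) and open (blue) CTCF regions in promoters (3 kb), exons, introns and intergenic DNA, and percentage of regions with a motif whose best match was soft-masked or held a CpG, at C12 or at C2; error bars are 95% Wilson intervals. Promoters stand at 24.9% and 44.3%, and soft-masked best matches at 39.5% and 10.3%.

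The difference in methylation was present in each gene context. In promoters, motif methylation was 16.1% in outside-open against 2.01% in open regions, in introns 23.2% against 7.35%, in exons 17.6% against 6.94%, and in intergenic DNA 18.2% against 4.43%.

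For each region within 3 kb of a start, the gene of the nearest start was taken, whatever its type, and each gene was counted once. Such genes were expressed at a lower median beside outside-open regions. Genes beside outside-open regions had a median of 1.16 TPM (5801 genes) against 5.375 TPM for genes beside open regions (3582). At 1 TPM or more were 50.9% of the genes beside outside-open regions against 65.02%, and 25.5% against 12.95% were listed at 0. Among genes at 1 TPM or more the order of the medians turned, with 1.04 TPM more beside outside-open regions, so the lower median came with the larger share of genes below 1 TPM. Genes that held a region outside their promoter had medians of 4.54 and 3.83 TPM. The TPM values are of merged samples and carry no error, and 824 genes, those without a TPM value included, had regions of both kinds at their promoter.

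Outside-open regions were found beside some of the most abundant transcripts too. In the Gapdh gene, a glycolytic enzyme at 6546.91 TPM, a region at chr6:125162069-125162240 had a fold of 11.8 and lay 256 bp from the nearest open region. Beside Ptma (prothymosin alpha, 5304.54 TPM) a region had a fold of 5.27 and 0 of 75 methylated calls. At Rps10, a ribosomal protein gene at 3307.9 TPM, a region 2104 bp from the start had a fold of 10.5. A region at Gm28438 (8139.36 TPM) held no motif match and lay in none of the CTCF-M-ChIP-NC or CTCF-ChIP lists.

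In gene families with a known role for CTCF or domain borders, the share outside open chromatin varied about its value over all CTCF regions. Within 10 kb of imprinted genes 48 of 71 CTCF regions were outside (76% of all CTCF regions were), and beside protocadherin genes, whose promoters CTCF helps to choose, 46 of 63. Beside antigen receptor genes, assembled by recombination in lymphocytes, 88 of 101 were outside (87.1%, 95% Wilson interval 79.2% to 92.3%), beside olfactory receptor genes 116 of 145, and beside Hox genes, the regulators of body axis identity, 11 of 22 (50%, 30.7% to 69.3%). Of 34 regions beside pluripotency genes 22 were outside, and of 4 beside globin genes 3 were.

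Motif methylation of the outside-open regions in these families lay below the 19.1% of all outside-open regions in each family. It was 0.250% beside Hox genes (25 cytosines) and 3.35% beside protocadherin genes (47), close to the 0.156% and 3.11% of the open regions of these families. It was 10.3% beside pluripotency genes (26), 0 beside globin genes (6), 12.7% beside antigen receptor genes (34), 14.8% beside olfactory receptor genes (58) and 15.8% beside imprinted genes (46), against 0.641%, 0, 3.04%, 3.12% and 3.06% in the open regions of these 5 families. These are few cytosines, some entered once for each of several overlapping matches, and no test was made over a family. The 6 of outside-open regions beside globin genes all come from the Hbq1a region, which has 4 distinct motif cytosines. In an intron of the imprinted Kcnq1, a potassium channel gene, a region at chr7:143114787-143115091 had a fold of 18.6 and was in all 6 CTCF lists, from 9.67 to 23.7. Near Olfr655, chr7:104603257-104603620 had a fold of 22.3, was in all 6 lists from 13.4 to 38.4, and had 1 of 52 methylated calls. The promoter region of Hbq1a, an alpha-globin family gene, at chr11:32299783-32300187, had 3 matches, a fold of 12.9 and 0 of 43 methylated calls.

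Pluripotency genes, which these cells express, had such regions as well. A region 12460 bp from the start of Nanog (461.4 TPM) at chr6:122720028-122720296 had a fold of 17.97, 0 of 34 methylated calls, and values from 10.02 to 27.6 in the 6 CTCF libraries. At the start of Tdgf1 (941.9 TPM), a co-receptor of Nodal signalling, chr9:110944405-110944598 had a fold of 14.4 and a soft-masked best match. In an intron of Esrrb (296.28 TPM), an orphan nuclear receptor, chr12:86508556-86509031 had 14.1, with 2 of 29 methylated calls.

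The share of CTCF regions outside open chromatin differed between chromosomes. It ran from 72.9% to 84.8% over 20 chromosomes, Y left out, with an SD of 2.83 points. The highest value was on the X chromosome, and chromosome 5 had 81.5%.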

How the data were processed

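Peak lists, motif matches, motif cytosines and merged expression values were used as deposited. The authors trimmed reads with Trim Galore 0.4.4, aligned them to mm10 with Bismark 0.18.1 (bisulfite) or Bowtie2 (ATAC and CTCF-ChIP), removed duplicates and low-quality alignments with SAMtools 1.3 and called peaks with MACS2. The aligner of the unconverted libraries was not given in the sources used here. The deposited lists give the fold enrichment (a ratio) and the −log10 q-value of each summit. Rows of 1 region were joined and the highest fold kept. The merged CTCF and M-ATAC lists come from pooled replicates. Deposited FIMO output gives the score and p-value of each MA0139.1 match. The deposited cytosine table gives counts of methylated and unmethylated reads and their percent. TPM values were deposited for merged mESC samples. The lists give no read depth, and the sequencing metrics stated by the study are not used here. Lists of the KLF4 experiments and the table of M-ATAC cytosines were not used here.

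The members of the set, the gene lists and the tests were chosen with earlier results of these data known. Overlap meant at least 1 bp. Genes were those of GENCODE M21, with 47187 of 47606 TPM genes matched by identifier, and soft-masking that of the RefSeq GRCm38 sequence (a match counted as soft-masked from 50% of its bases). Cytosines needed 5 reads and regions 10 calls. Regions and cytosines share libraries and are no replicates: values over them carry quartiles, 95% Wilson intervals or the spread over 20 chromosomes, without p, and tests are exact permutation tests over libraries, two-sided, adjusted over 3 tests by Benjamini and Hochberg. Named regions were the 10 highest in fold, the 5 highest in motif score, the 3 highest and 3 lowest in Wilson bounds of methylation, the 5 promoter regions of highest TPM, and up to 3 by fold in each gene list, of which a part is described; a region without an overlapping gene is named by the nearest start. Calculations used Python 3.11.15, pandas 2.3.3 and SciPy 1.17.1.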

Additional observations from a re-analysis of the deposited data

How the results depend on the processing

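Of 119 alternatives over 10 results, 99 kept their direction and stayed within the spread or on the same side of the threshold. For recovery, fold of recovered regions and the recovery gap, 16, 16 and 5 of these were judged by sign and threshold alone. With 4 or fewer libraries p cannot fall below 0.125, so they could not cross the threshold and say nothing about the size of the difference. Recovery of -5.25 points in place of -10.9 was counted among them. Methylation stayed higher in outside-open regions in all 20 of its alternatives, but its difference of 15.5 points was 19.4 with at least 1 read, 10.4 with at least 10 reads, 2.41 at C2 alone and, an alternative chosen after seeing the data, 9.63 without soft-masked best matches. Requiring both CTCF-M-ChIP lists left 17563 outside-open regions and a fold difference of -1.19 in place of -1.86, and within quartiles of region width that difference was -0.66. The motif results depended on the setting. The share with a match, 0.168 points higher, became -0.294 when only the strongest summit had to lie in an open region, -1.66 over 3 kb from a start, 3.05 within quartiles of width, 2.66 within quartiles of fold and 2.66 with matches of p at most 1e-05. The score difference of -0.295 was -0.770 over 3 kb from a start, and it turned to 0.244 within quartiles of width, 0.195 within quartiles of fold, 0.279 with the mean over all matches and 0.0164 without soft-masked matches. The expression difference of -4.215 TPM turned to 1.04 among genes at 1 TPM or more. The cause of these changes was not tested.

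Adding both CTCF-M-ChIP libraries, which defined the list, gave recovery -10.3 points and log2 fold -0.20, each with p = 0.03125 (exact sign-flip permutation test over 6 libraries). These 6 hold aliquots of the same material as well as the libraries behind the merged list, so this p is no independent support. Leaving out 1 library at a time gave recovery from -13.5 to -7.72 points, log2 fold from -0.23 to -0.18, and a gap between CTCF-ChIP and CTCF-M-ChIP-NC from 6.86 points (without CTCF-M-ChIP-NC replicate 1) to 15.0 points. With the replicate number as a block that gap was 10.9 points (p = 0.5, exact). The labels do not say that a number marks a shared culture, and with 2 pairs the block tests little.

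Coverage limits the text in 2 ways. Peak lists carry no reads, and 36.7% of outside-open regions had 5 or more reads at motif cytosines, against 53.8% of open regions. A region with no CpG at its motifs has no such reads at any depth. A best match with any CpG stood in 39.7% of outside-open and 55.7% of open regions with a motif. The parts of depth and sequence in these shares were not separated.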

Other observations

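Motif methylation differed with the number of lists a region was found in. Outside-open regions in none of the 4 CTCF-M-ChIP-NC and CTCF-ChIP lists had a mean motif methylation of 33.1% (78 cytosines), those in 1 list 35.9% (290 cytosines), those in 2 lists 34.4%, in 3 lists 24.7% and in all 4 lists 14.6% (13373 cytosines). Open regions had 26.7% in none (3 cytosines), 5.34% in 1 list, 5.69% in 2, 4.52% in 3 and 3.28% in all 4. In outside-open regions the share of soft-masked best matches went from 59.4% in none to 35.2% in all 4, and the median fold from 5.04 to 12.2. How much each of these contributes was not tested.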
